A study of Mus musculus with 5 samples.

Results

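Genes for the uptake and binding of fatty acids were examined in a profile of RXRα binding in mouse alveolar macrophages (AMs). The 9 genes were Cd36, Fabp1, Fabp3, Fabp4, Fabp5, Lpl, Msr1, Olr1 and Vldlr. A peak was given to one of them when the transcription start site (TSS) nearest to the peak midpoint, among all protein-coding transcripts of GENCODE M21 on mm10, belonged to that gene. By this rule the genes held 21 of 4751 peaks (WT A), 49 of 9766 (WT G), 0 of 83 (KO A) and 1 of 208 (KO G). The annotation held 21842 protein-coding genes in all.

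RXRα was immunoprecipitated by HT-ChIPmentation, in which the sequencing library is built by tagmentation of chromatin held on beads, from AMs of bronchoalveolar lavage that had been sorted by flow cytometry. The WT A and WT G libraries came from CD11cCre- Rxrabfl/fl mice and the KO A and KO G libraries from CD11cCre+ Rxrabfl/fl mice, and an input of CD11cCre- Rxrabfl/fl chromatin was the control for peak calling. Both genotypes therefore carried floxed Rxra and Rxrb alleles, and Cre was under Cd11c control, so that any cell with Cd11c activity could be recombined. These genotypes are those of the labels, which the groups follow. The results text and a legend of the study name the same genotypes for RXRα binding, the legend with mice of 9 weeks and an n of 2 per genotype, whereas its methods section gives 9-week-old WT C57BL/6J mice for this assay. No source used here says what the letters A and G stand for, or whether a library came from 1 animal or a pool, so the spread between a pair of libraries may be technical. Expression was not measured in these files. The nearest-gene check of the cell type gave a region in both WT lists for 7 of 9 AM markers and for 0 of 8 markers of other lavage cells, beside 8.82% of all protein-coding genes. In single lists, the AM markers nearest to a peak were 8 of 9 (WT A), 8 (WT G), 0 (KO A) and 1 (KO G), and the other markers 1 of 8, 2, 0 and 1, where all genes gave 10.4%, 16.6%, 0.353% and 0.861%. The check therefore bears on the WT libraries and says nothing of the cell type in the KO libraries.

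RXRα is a nuclear receptor that binds DNA as a dimer with partners such as PPARγ, LXR and the retinoic acid receptors. With PPARγ, which responds to fatty acid ligands, it binds a direct repeat of the hexamer AGGTCA with a single base between the copies, called DR1. AMs take up and break down the lipids of surfactant, and genes of fatty acid uptake are textbook PPAR targets in adipocytes, liver and macrophages. Among the 9 genes, Cd36 encodes a receptor for fatty acids and oxidised lipoproteins, and Msr1 and Olr1 encode scavenger receptors of modified lipoproteins. Lpl encodes the lipase that frees fatty acids from lipoprotein triglycerides, and Vldlr a receptor for triglyceride-rich lipoproteins. Fabp1, Fabp3, Fabp4 and Fabp5 encode the liver, heart, adipocyte and epidermal fatty acid binding proteins, which carry fatty acids within the cell.

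The sequences at the strongest binding of these genes are shown first. They were read from the mm10 genome. The upstream Fabp1, Lpl and Olr1 stretches are windows of 101 bases centred on the summit of the stronger WT library, and the Fabp1 intron 1 and Fabp4 stretches are such windows centred on the WT A summit, where a DR1 was found. Beside the strongest Cd36 summits, which lie just past its end, a stretch of 29 bases around the RUNX letters is given. The promoter stretches of Cd36 and Fabp1 begin 250 bases upstream of the RefSeq start (table built on GRCm38.p6, the assembly of mm10), end just before that start at Cd36 and before the GENCODE start at Fabp1, and run in the direction of the gene. They are shown for the DR1 they hold and for the peaks on them, which are in both WT libraries and KO G at Cd36 and in WT G alone at Fabp1. Capitals mark a DR1 with at most 2 mismatches, the hexamer AGGTCA or its reverse complement, the C/EBP letters TTACNNAA or TTGCNNAA, or the RUNX letters TGTGGTT. A match describes the letters and is not shown to be a binding site. The stretches are as follows.
Cd36 promoter, chr5:17835897-17836146, minus strand: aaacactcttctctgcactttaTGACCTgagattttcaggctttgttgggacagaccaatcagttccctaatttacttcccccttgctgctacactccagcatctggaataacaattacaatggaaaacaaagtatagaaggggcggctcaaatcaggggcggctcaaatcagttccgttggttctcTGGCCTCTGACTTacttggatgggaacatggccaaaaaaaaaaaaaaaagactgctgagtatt
Cd36 RUNX letters beside the strongest summits, chr5:17835771-17835799, plus strand: agatgctaattTGTGGTTggttgccaagg
Fabp1 promoter, chr6:71199629-71199826, plus strand: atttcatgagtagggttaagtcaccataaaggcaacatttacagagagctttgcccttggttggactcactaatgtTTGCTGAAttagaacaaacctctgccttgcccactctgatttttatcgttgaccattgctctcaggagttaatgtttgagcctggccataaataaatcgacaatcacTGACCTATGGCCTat
Fabp1 upstream region, chr6:71185267-71185367, plus strand: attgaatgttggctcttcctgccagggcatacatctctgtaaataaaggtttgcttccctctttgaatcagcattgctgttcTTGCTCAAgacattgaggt
Fabp1 intron 1, WT A summit, chr6:71200750-71200850, plus strand: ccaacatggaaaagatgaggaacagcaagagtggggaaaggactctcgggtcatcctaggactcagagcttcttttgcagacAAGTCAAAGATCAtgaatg
Lpl downstream region, chr8:68914655-68914755, plus strand: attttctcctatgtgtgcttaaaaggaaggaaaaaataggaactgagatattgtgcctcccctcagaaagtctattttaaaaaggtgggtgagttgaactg
Olr1 intron 1, chr6:129503678-129503778, plus strand: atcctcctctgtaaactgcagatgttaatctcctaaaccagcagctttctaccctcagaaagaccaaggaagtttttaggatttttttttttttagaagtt
Fabp4 intron 1, WT A peak, chr3:10206396-10206496, plus strand: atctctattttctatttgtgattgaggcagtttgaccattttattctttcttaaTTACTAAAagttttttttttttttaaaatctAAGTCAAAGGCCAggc

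The libraries differed in depth, which bears on every count. Depth relative to the input, derived from the fold enrichments and p-values in the lists, came to 1.13 and 0.237 for WT A and WT G, and to 0.647 and 0.848 for the KO pair in the same order. WT G was thus the shallowest library and yet had the longest list. Over the 15 regions near these genes that both WT libraries shared, WT G held 1.87 to 4.43 times as many fragments per unit of depth as WT A (median 3.01), against a median of 2.98 over all 3423 shared regions. The ratio was not corrected for fragment length, which by the shortest peak was 116 bp in WT A and 215 bp in WT G. A summit gathers more fragments when they are longer, so the ratio does not measure enrichment alone.

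The first question was which of these genes had RXRα peaks nearest to them in each library. In WT A, 5 of the 9 genes were nearest to a peak, where 10.4% of all protein-coding genes were. In WT G, 6 of the 9 were, where 16.6% of all genes were. In KO A none of the 9 was, against 0.353% of all genes, and in KO G 1 was, against 0.861% of all genes. The genes were chosen with earlier results of these data known, so these shares describe the set and test nothing. The member peaks made up 0.442% of the WT A list (95% Clopper-Pearson interval 0.274% to 0.675%), 0.502% of WT G (0.371% to 0.663%) and 0.481% of KO G (0.0122% to 2.65%). The KO A list of 83 peaks was too short for a comparison of shares, since 0 of 83 allows a share of up to 3.61% by a floor of 3 counts, or 4.35% by the upper Clopper-Pearson bound. These intervals cover counting error only. They take peaks as independent, though many lay near the same gene, and may therefore be too narrow. The intervals of the 3 libraries with a member peak overlapped.

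Cd36 had the most peaks, with 8 and 15 in WT A and WT G, and 0 and 1 in KO A and KO G. Olr1 followed in WT A with 5 peaks and had 13 in WT G. Lpl had 4 (WT A) and 14 (WT G). Fabp1 had 3 (WT A) and 5 (WT G). Olr1, Lpl and Fabp1 had none in either KO library. The order of Lpl and Olr1 thus differed between the WT libraries, whereas Cd36 came before and Fabp1 after both in each. With a pair of libraries per genotype, the order of neighbours was not tested. Fabp4 had 1 peak in WT A and 1 in WT G, at different places, and Fabp5 had 1 in WT G alone. Fabp3, Msr1 and Vldlr had no peak in any of the 4 lists.

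Over the 9 genes together, the WT libraries had 21 and 49 peaks and the KO libraries 0 and 1, so the groups did not overlap. The mean was 35.0 ± 19.8 (SD, n = 2) for WT libraries and 0.5 ± 0.707 (SD, n = 2) for KO libraries, a difference of 34.5 peaks per library (exact permutation test, two-sided, p = 0.333). This p is the smallest that 2 libraries against 2 can give. Without WT G the difference was 20.5, and with both WT libraries but only peaks at a −log10 q of at least 5 it was 22.5. The whole lists differed in the same direction, and the members were not tested apart from them. In bulk chromatin, fewer cells with RXRα on DNA and less RXRα per cell cannot be told apart.

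**Figure D1:**
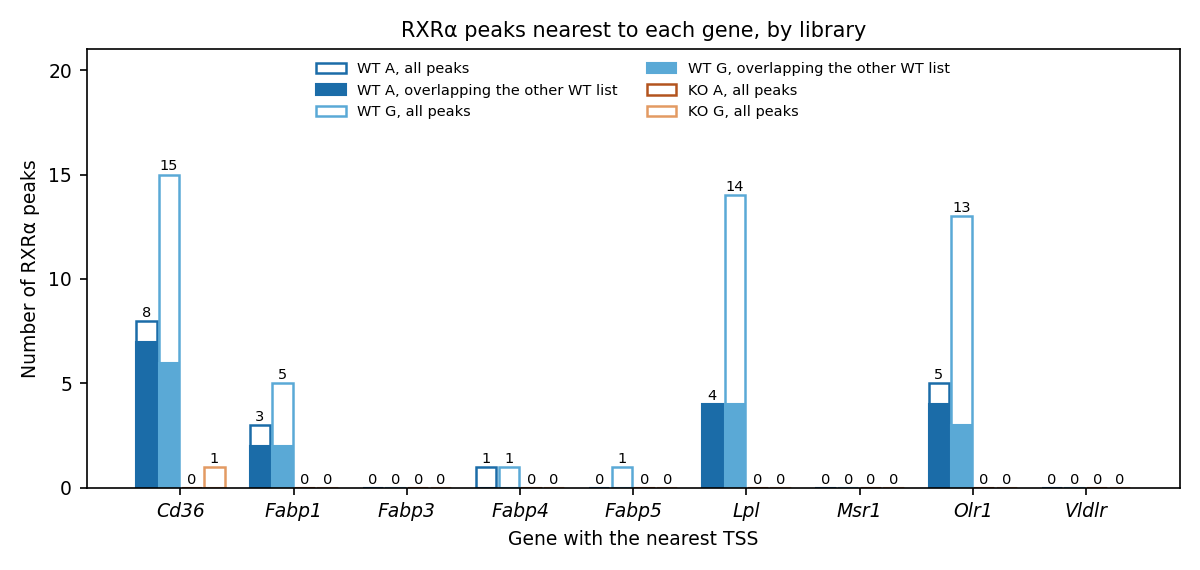
Number of RXRα peaks nearest to each of the 9 genes in each of the 4 ChIP libraries. Open bars give all peaks and filled bars the WT peaks that overlap a peak of the other WT library, with the number of all peaks above each bar; Cd36 reaches 15 peaks in WT G, and the KO libraries show a single peak, at Cd36 in KO G.

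Peaks found in both WT libraries were then merged into regions, with an overlap of at least 1 bp. Of 3423 such regions, 15 were nearest to these genes. When at least 50% of both peaks had to overlap, 8 regions were, of a total that was not counted. Cd36 had 6, Lpl 4, Olr1 3 and Fabp1 2, and 4 of the 9 genes had at least 1, where 8.82% of all protein-coding genes did. By number of regions, and tied with other genes, Cd36 shared ranks 41 to 64, Lpl 93 to 181, Olr1 182 to 343 and Fabp1 344 to 718 among all genes. The median gene with a region had 1, and the highest number was 16.

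The midpoint of 11 of the 15 regions was in an intron, against 48.8% of all shared regions, 3 were intergenic, against 40.5%, and 1 was at a promoter, defined as the 1 kb before a TSS and the 100 bp after it, where 8.15% of all shared regions were. With the stronger summit in place of the midpoint, 3 of the 15 were at a promoter (2 of Olr1 and the strongest of Cd36). No share of all shared regions by summit is given, and the 8.15% by midpoint cannot be set against this count. The median distance from the nearest TSS was 5.12 kb, against 14.0 kb over all shared regions, and 11 of the 15 lay within 10 kb, against 41.9% of all. The summits of the pair of WT libraries lay 9 to 531 bp apart, with a median of 67 bp against 96 bp over all shared regions. They were within 50 bp of each other in 7 of the 15, against 27.4% of all. Peaks of the same gene are not independent, and these values are given as a description.

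**Figure D2:**
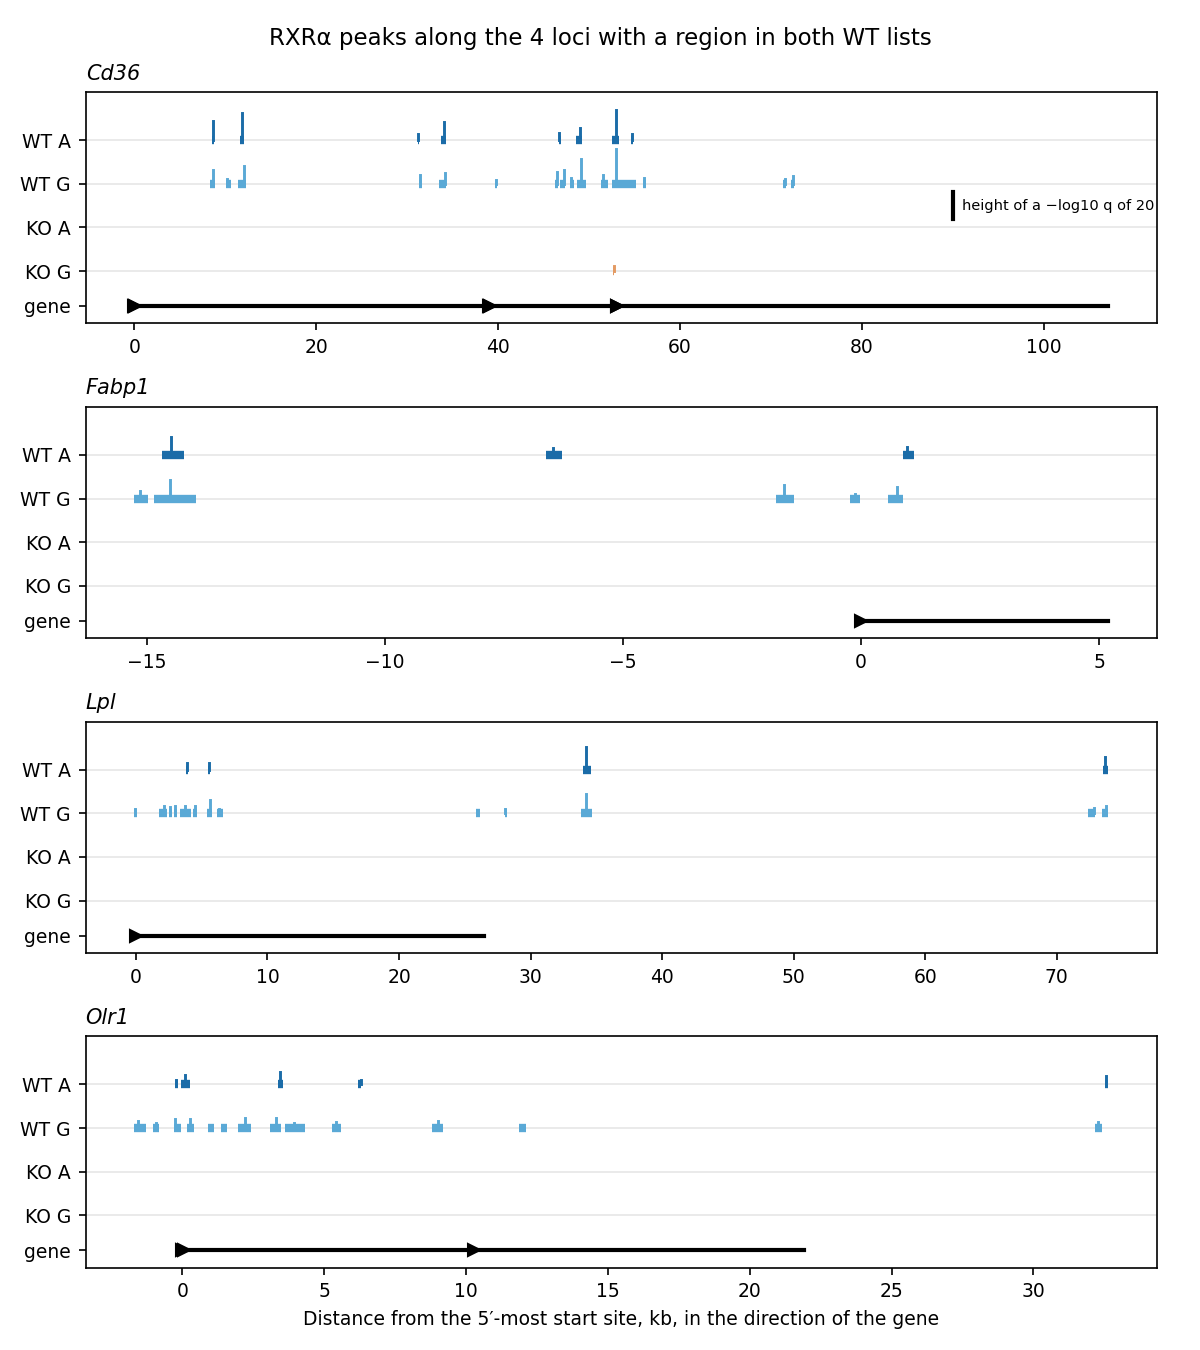
RXRα peaks along Cd36, Fabp1, Lpl and Olr1, by distance in kb from the TSS farthest upstream and in the direction of the gene. Thick bars are peaks, the line above each stands at its summit with a height in proportion to its −log10 q, the black line is the gene and arrowheads are TSSs; most peaks of Cd36, Lpl and Olr1 lie inside the gene or within a few kb of a TSS, and the KO rows hold a single peak, at Cd36.

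Cd36 (chr5:17781690-17888801, minus strand) carried the strongest region of the set, at chr5:17833600-17836287. Its −log10 q was 23.3 (WT A) and 26.4 (WT G), with 32 and 24 fragments over the summit and deposited fold enrichments of 13.0 and 16.1. Since a constant is added to ChIP and background in the deposited value, these are lower than plain ratios, by a different amount in each library. By the smaller of the WT values it shared ranks 45 to 51 of the 3423 shared regions. The summits were 13 bp apart, and that of WT G lay 94 bp upstream of an internal TSS of Cd36 (position 17835717, minus strand). In RefSeq both summits fall within a Cd36 exon, chr5:17835618-17835896, whose upstream end is the annotated start at position 17835896, so the region covered a promoter of Cd36 in both annotations, at different points. The RUNX letters TGTGGTT were centred 26 bp from the WT G summit, as printed above, in 1 of the 15 member windows and 5.93% of all. In the promoter stretch, a DR1 with 2 mismatches, AAGTCAGAGGCCA on the plus strand, lay between positions 17835947 and 17835959, 129 bp from the WT A summit and 142 bp from the WT G summit, and was covered by a peak in both WT libraries.

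The other 5 shared regions of Cd36 were all in its first intron, which differs in length between transcripts. At chr5:17839174-17840215, 3.98 kb upstream of the internal TSS, the −log10 q was 8.98 (WT A) and 18.8 (WT G). At chr5:17841398-17842145 it was 5.22 and 10.5, with summits 531 bp apart. Both of these were stronger in WT G. The regions farther upstream were stronger in WT A. They had a −log10 q of 13.5 (WT A) and 8.04 (WT G) at chr5:17854496-17855327, which lies 5.12 kb upstream of a middle TSS. The values were 20.7 and 13.2 at chr5:17876576-17877390, and 14.7 and 10.5 at chr5:17879973-17880469, which lie 11.8 kb and 8.53 kb downstream of the first TSSs of the gene. Binding at Cd36 was thus spread over the surroundings of all 3 clusters of TSSs in both WT libraries.

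In the KO libraries, Cd36 was the one gene of the set with a peak. The KO G peak at chr5:17836036-17836159 had a −log10 q of 4.15, with 11 fragments and a fold enrichment of 6.20, and lay inside the strongest WT region. This was 1 of the 15 shared regions near these genes with a KO peak, against 5.87% of all shared regions. The count was 0 without KO G, at a −log10 q of at least 5, with 50% overlap and with summits within 150 bp. The share of all shared regions was not counted under these settings, so the drop cannot be set against a general one. KO A had no peak there. The KO G summit was 289 bp from the WT A summit and 302 bp from that of WT G. Over the 270 KO peaks in shared regions, the median distance to the nearest WT summit was 37.5 bp, and 8 of them (2.96%) were as far away as that of Cd36 or farther. The KO G summit lay 9 bp from the hexamer AGGTCA, which stands as TGACCT near the 5′ end of the printed promoter stretch and begins a repeat with 3 bases between the copies and 2 mismatches.

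Lpl (chr8:68880491-68906934, plus strand) had its strongest region beyond its 3′ end, 34.3 kb downstream of the TSS, at chr8:68914310-68915180. The −log10 q was 17.0 (WT A) and 14.5 (WT G), with 31 and 16 fragments, and the summits were 34 bp apart. It shared ranks 228 to 259 of all shared regions. A second distal region, at chr8:68953956-68954431, had values of 9.92 and 5.73 and held the hexamer AGGTCA as part of a repeat with 2 bases between the copies and 2 mismatches, which 2.54% of all windows held. The remaining pair of regions was in intron 1, at 3.76 kb (5.22 and 5.73) and 5.60 kb (5.22 and 10.5) from the TSS. WT G had a further 10 peaks near Lpl, none of which overlapped WT A. One of these, at chr8:68880368-68880582, covered the promoter with 7 fragments and a −log10 q of 3.61. Of the Lpl gene body, 13.2% was under WT G peaks and 0.911% under WT A peaks.

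Fabp1 (chr6:71199827-71205023, plus strand) had a region 14.4 kb upstream of its TSS, at chr6:71184968-71185844. The −log10 q was 13.8 (WT A) and 14.2 (WT G), with fold enrichments of 8.58 and 10.5, 28 and 17 fragments and summits 10 bp apart, and the region shared ranks 272 to 274 of all. Its window held the C/EBP letters 36 bp from the summit, which 3 of the 15 member windows and 19.4% of all windows held. The second region was in intron 1, at chr6:71200383-71200930, with values of 6.16 and 8.42 and summits 219 bp apart. The WT A summit of that region was 38 bp from a DR1 with 2 mismatches, AAGTCAAAGATCA, and the window of the WT G summit had none with fewer than 4.

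The Fabp1 promoter held the closest DR1 among the RefSeq promoters of these genes, with 1 mismatch, AGGCCATAGGTCA on the minus strand, at positions 71199812 to 71199824. Of 32851 RefSeq promoters of 300 bases, 0.554% held a DR1 with at most 1 mismatch and 3.86% with at most 2. A promoter was found in that table for Cd36, Fabp1, Fabp3, Olr1 and Vldlr, and among these Cd36 and Fabp1 had a DR1 with at most 2 mismatches. A WT G peak at chr6:71199599-71199813, with 7 fragments and a −log10 q of 3.61, reached the edge of the Fabp1 site, its summit 119 bp away. WT A had no peak at the Fabp1 promoter.

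Olr1 (chr6:129485244-129507165, minus strand) had weaker regions, all within a few kb of its upstream TSSs. Its strongest, in intron 1 at chr6:129503629-129504091, had a −log10 q of 9.11 (WT A) and 8.04 (WT G), with 19 and 12 fragments, and shared ranks 1020 to 1176 of all. At chr6:129506753-129507211, over the first exon, the values were 7.14 and 6.88. Just upstream, at chr6:129507219-129507466, they were 3.43 and 6.88, and this was the region of the set with the lowest value in WT A. WT G alone had a further 10 peaks near Olr1, with 14.5% of the gene body under WT G peaks against 2.69% under WT A peaks. A WT A peak 22.3 kb downstream of an internal Olr1 TSS, with a −log10 q of 6.16, overlapped a WT G peak whose merged region was nearest to Clec1a, so it is counted among the peaks of Olr1 and not among its shared regions.

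Fabp4 (chr3:10204088-10208576, minus strand), the adipocyte binding protein, had no shared region. In WT A the peak was in intron 1, at chr3:10206380-10206515, with its summit 2.13 kb downstream of the TSS, a −log10 q of 6.16 and 15 fragments. It held a DR1 with 2 mismatches, AAGTCAAAGGCCA, 41 bp from the summit, with the same pair of hexamers as the Cd36 promoter site, AAGTCA and AGGCCA. In WT G the peak was upstream, at chr3:10213979-10214193, 5.48 kb from the TSS, with a −log10 q of 5.73 and 9 fragments, and no DR1 in its window with fewer than 5 mismatches. The single Fabp5 peak, in WT G at chr3:9947546-9947760, lay 65.0 kb upstream, with a −log10 q of 3.61 and 7 fragments.

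For the 3 genes with no peak, the nearest WT summits were remote and belonged to other genes. They were 425 kb (WT G) and 492 kb (WT A) from Fabp3, 597 kb (WT A) and 942 kb (WT G) from Msr1, and 469 kb (WT G) and 2078 kb (WT A) from Vldlr. Within 100 kb of their TSSs there were 0 peaks in each of the 4 libraries, whatever gene was nearest. At the depth of these libraries this shows that no peak was called there, not that RXRα did not bind.

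The letters at the summits were then searched. With at most 2 mismatches within 50 bp of the stronger summit, 0 of the 15 member regions held a DR1, against 6.34% of all shared regions (by the floor of 3 counts, 0 of 15 allows a share of up to 20%). With at most 3 mismatches, 3 of 15 did, against 21.2% of all. At the WT A summits, 1 of 15 did with at most 2 mismatches, against 6.51% of all. With 150 bp on each side of the summit, a setting chosen after the data were seen, 1 of 15 did with at most 2 mismatches (the Cd36 promoter site), against 14.3% of all. The hexamer AGGTCA alone was in 1 of 15 windows against 15.2% of all. The PU.1 letters AGGAAGTG were in 1 of 15 (4.62% of all) and the AP-1 letters TGAGTCA in 1 of 15 (5.49% of all).

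The strength of the shared regions was compared between the WT libraries. By −log10 q, 7 of the 15 were stronger in WT A and 8 in WT G, and 51.2% of all shared regions were stronger in WT A. The smaller of the WT values had a median of 8.04, against 6.16 over all shared regions, and 9 of the 15 were above that median. Of the WT A peaks near these genes, 17 of 21 (81.0%) overlapped a WT G peak, against 83.2% of all WT A peaks. Of the WT G peaks, 15 of 49 (30.6%) overlapped a WT A peak, against 36.1% of all. The 34 member peaks found in WT G alone had 6 to 13 fragments and a −log10 q of 2.45 to 10.5 (median 4.64), while the 15 that overlapped WT A had 5.73 to 26.4 (median 10.5).

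**Figure D3:**
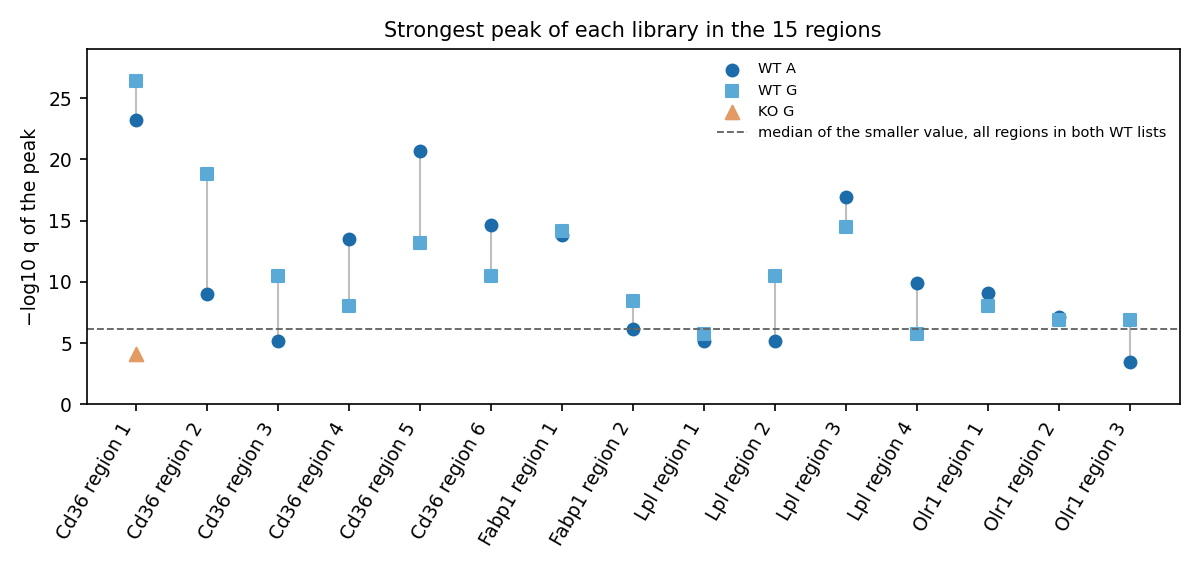
The −log10 q of the strongest WT A peak (circles) and WT G peak (squares) in each of the 15 shared regions, numbered within a gene from the lowest coordinate, with the KO G peak as a triangle and the median of all shared regions (6.16) as a dashed line. The first region of Cd36 is highest in both WT libraries, at 23.3 and 26.4, and the KO G peak there is at 4.15.

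Whether a peak of WT strength could have been called in the KO libraries was examined from the fragments. Rescaled to the depth of KO A, the 15 regions would have held 6.87 to 18.3 fragments by their WT A values and 24.6 to 65.5 by their WT G values. The fewest fragments of any KO A peak was 10, which 9 of the 15 reached by the WT A values and all 15 by the WT G values. At the depth of KO G the regions would have held 9.0 to 24.0 fragments by WT A and 32.2 to 85.9 by WT G, and all 15 reached the fewest of any KO G peak, which was 8. The rescaling takes the share of fragments in these regions to be that of a WT library, and the WT libraries differed in it. It uses depth alone and not the fragment length. By the shortest peak, that length was 116 bp (WT A), 215 bp (WT G), 138 bp (KO A) and 102 bp (KO G). As far as length goes, the WT A values are thus too low for KO A and too high for KO G, and the WT G values too high for both. The counts of 9 and 15 regions were not corrected for this. By depth alone and the WT A values, 6 regions lay below the fewest fragments of a KO A peak, where a missing peak cannot be told from a missed one.

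**Figure D4:**
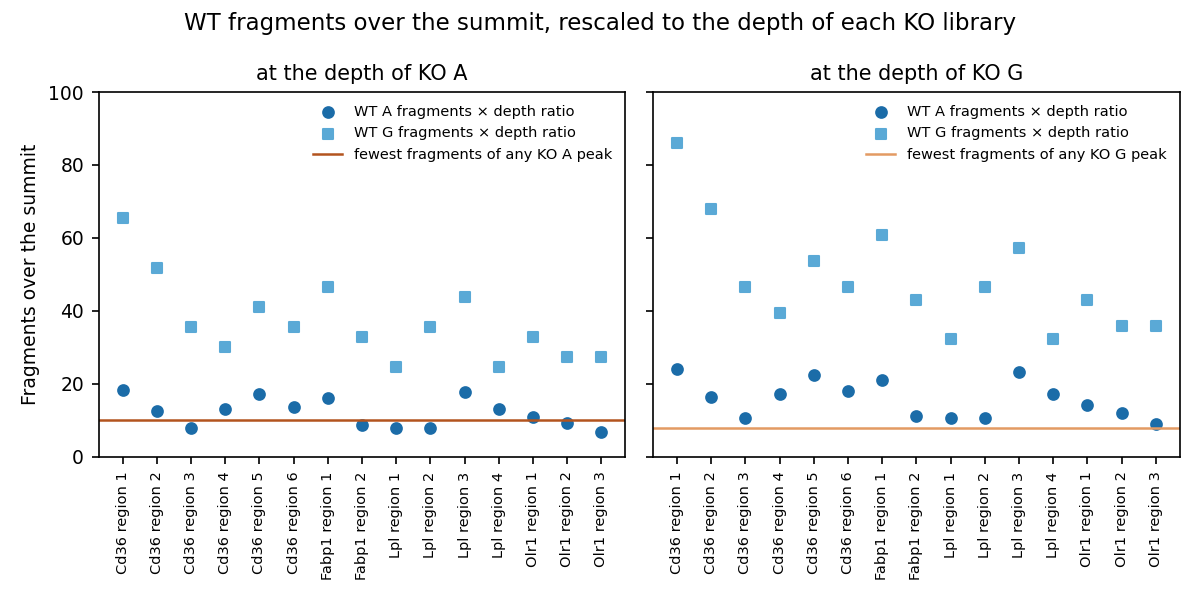
WT fragments over the summit of each of the 15 shared regions, multiplied by the ratio of the depth of KO A (left) or KO G (right) to that of the WT library, with a line at the fewest fragments of any peak in that KO library (10 and 8). Values from WT A (circles) run from 6.87 to 18.3 in KO A, below the line for 6 regions, and from 9.0 to 24.0 in KO G. Values from WT G (squares) lie above the line throughout. No value is corrected for fragment length.

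Other genes of the same pathways were counted in 4 lists chosen for function. Among transporters and acyl-CoA ligases, 1 of 11 had a region in both WT lists, which was Acsl1, a long-chain acyl-CoA ligase (−log10 q 6.16 (WT A) and 4.84 (WT G)). Among other binding proteins 1 of 11 did, Fabp7, with a weak region 56.9 kb upstream (4.31 and 2.63). Among lipases, lipoprotein receptors and their partners 4 of 13 did. They were led by Angptl4, the inhibitor of lipoprotein lipase and a known PPAR target (28.6 and 31.3, with KO peaks at 3.99 in KO A and 6.31 in KO G). Lrp1 (18.2 and 14.5) and Lipc (14.7 and 12.2) followed. The strongest region lay 1.9 kb from the TSS at Angptl4, 16.05 kb at Lrp1 and 95.7 kb at Lipc. Among other scavenger receptors 3 of 10 did, namely Scarb2 (23.3 and 18.8, with a KO A peak at 6.15), Marco (8.49 and 16.8) and Cd68 (6.16 and 5.87). The share over all genes was 8.82%, as above.

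The genes with a pattern most like that of Cd36 over the 4 libraries were Ptger4, Cyth4 and Trps1, with Euclidean distances of 0.0981, 0.179 and 0.226 on log2 of the strongest −log10 q plus 1. Like Cd36, each had its strongest KO G peak at a −log10 q of 4.15 and none in KO A. The KO values entered the distance, so this match is part of how the genes were chosen and no further result.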

How the data were processed

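RXRα HT-ChIPmentation peaks of 4 libraries were analysed, each as the narrowPeak list the authors deposited. The submitters' notes name cutadapt, Bowtie2, SAMtools and MACS3 and the build mm10; peaks were called per library against the input, whose own file was not used here. The deposited fold enrichment is a ratio of ChIP to input background at the summit, with the same constant added to both terms. It is therefore lower than the plain ratio. For most peaks near these genes the background was that of the whole library, and for the others a higher local one. The deposited −log10 p and −log10 q also refer to the summit, the score is that −log10 q times 10, cut by the authors to a whole number, and the last deposited column places the summit. No read counts were used, so no count model was fitted.

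Lists were read in Python 3.11.15 with numpy 2.4.6, pandas 2.3.3 and scipy 1.17.1, and sequences with pysam 0.24.0. Fragments were solved from fold enrichment and p, as whole within 0.004 (0.012 in WT A, where 4749 of 4751 peaks were whole; every peak of the other lists was). Depth rests on the shortest peak being the caller's fragment length. Fragments over a summit were not corrected for that length. The overlap, nearest TSS, motif and fragment steps were first tested on simulated data, the fragments at backgrounds higher than those of the lists. The depth and the rescaling to KO depth were not tested in this way. Described in full were, for each gene, its strongest shared region by the smaller −log10 q and every region with a KO peak, and up to 3 genes per pathway list. The genes and lists were chosen with earlier results of these data known. Alternatives changed the assignment, q, overlap, motif and libraries used.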

Additional observations from a re-analysis of the deposited data

How the results depend on the processing

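The direction of the WT minus KO difference in member peaks was the same under each alternative run, from 22.5 peaks per library at a −log10 q of at least 5 to 44.5 when all peaks within 100 kb were counted (exact permutation p = 0.333 wherever all 4 libraries entered without a block). Leaving out 1 library gave 20.5 (without WT G) to 48.5 (without WT A), each with an exact permutation p of 0.667. Two-sided p-values are double the smaller tail, which for 2 against 1 gives no less than 0.667. The difference was less by more than 1.5 times without WT G and at a −log10 q of at least 5. With the letters A and G as a replicate block the mean difference was again 34.5 (21 within A, 48 within G; exact sign permutation p = 0.5, the smallest possible); nothing in the labels says that the letters pair the libraries. The number of genes with a shared region was 4 under all alternatives that used both WT lists. With 1 WT list alone there are no shared regions, and the count is of genes nearest to any peak. It was 5 in WT A, where 10.4% of all genes were, and 6 in WT G, where 16.6% were.

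The 15 shared regions became 8 when at least 50% of both peaks had to overlap, 10 with summits within 150 bp, and 21 when all within 100 kb were counted. The 1 region with a KO peak became 0 at a −log10 q of at least 5, with 50% overlap, with summits within 150 bp and without KO G, and stayed at 1 without KO A. For these region and KO counts, no total or share over all shared regions was counted under the alternatives. The DR1 count of 0 became 3 with at most 3 mismatches, 1 at the WT A summit and 1 within 150 bp. The promoter count of 1 became 4 within 3 kb and 3 by summit, with no share over all shared regions given for either. The 150 bp window, the promoter count by summit and the GENCODE basic set (15 regions) were chosen after seeing the data. The cause of these shifts was not tested beyond their construction. At the KO A depth, 9 of the 15 regions reached the fewest fragments of any KO A peak by the WT A values, and all 15 by the WT G values. For the rest by the WT A values, the depth limits what the missing KO A peaks show. These counts are not corrected for fragment length, which differed between the libraries.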

Other observations

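Olr1 lies in a cluster of C-type lectin receptor genes, which are pattern receptors of myeloid and other cells, and the peaks around it were divided among neighbours. Within 100 kb of an Olr1 TSS there were 11 peaks in WT A and 25 in WT G, and 0 in KO A and KO G. Of these, 5 and 13 were nearest to Olr1, 2 and 6 to Clec1a, 3 and 2 to Clec9a, and 1 and 2 to Tmem52b, in WT A and WT G in that order. WT G had a further peak each at Clec1b and Gabarapl1. Of the 9 regions of this window in both WT lists, 3 were nearest to Olr1, 3 to Clec1a, 2 to Clec9a and 1 to Tmem52b. Which gene a region acts on cannot be told from these lists.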
